A study of Glycine max with 21 samples.

Results

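The late dehydration response was taken as the difference between the 3 libraries of soybean roots dehydrated for 12 hr and the 3 control libraries, 6 of the 21 libraries of the experiment. These 6 were chosen by their labels alone, and the comparison was followed over the 36691 gene models with enough counts to be tested, out of 62537 in the table. All plants were seedlings of Glycine max cv. Williams 82 at the first trifoliolate (V1) stage, with no transgene or mutation named, and root RNA was sequenced in every library. The controls were harvested at 0 hr, and dehydration meant 12 hr of exposure to air, off the germination paper and short of water. The remaining libraries, 3 per group, come from 1 and 6 hr of dehydration and from 1, 6 and 12 hr in 100 mM NaCl.

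Roots that lose water accumulate abscisic acid, a hormone that drives much of the transcriptional response to drought, and both hormone-dependent and hormone-independent branches of that response work through transcription factors. Families known for such roles in Arabidopsis include AP2-EREBP proteins, among which the DREB group binds a dehydration-responsive promoter element, as well as NAC, bZIP, MYB, WRKY and HD-Zip proteins. Many plant transcripts also follow the time of day, among them genes for MYB-related, CONSTANS-like and Dof proteins.

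Controls exist at 0 hr only, so the 12 hr of dehydration and the 12 hours that passed between the harvests cannot be told apart in any comparison with the control. In whole roots, fewer cells of a type and less RNA per cell also cannot be told apart. The control libraries held 7478459 to 8523477 counts and the dehydrated libraries 3752853 to 6590225. Spearman correlations over the tested genes were 0.927 to 0.965 among controls, 0.924 to 0.963 among the dehydrated libraries, and 0.881 to 0.940 between the groups. Control replicate 1 and dehydration replicate 3 were the libraries least like their group mates. No 2 replicates agreed within sampling noise. The study describes the replicates as biological, without saying how plants were divided among them, and the p-values measure the spread between these libraries. The tissue label could not be checked against root markers, because the gene models came with no functional description, and gene roles are given here only for the transcription factor classes and HD-Zip genes that the study annotated.

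At 12 hr the response was mostly a loss of transcripts. By edgeR's quasi-likelihood test, 738 genes were called, meaning a Benjamini-Hochberg adjusted p under 0.05 and at least a 2-fold difference, which is 2.01% of the genes tested. Of these, 594 (1.62% of tested) were lower than in the controls and 144 (0.392%) were higher, so 80.5% of the called genes were lower. The median log2 fold change over all tested genes was 0.01. An unadjusted p under 0.05 was reached by 4573 genes.

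The losses were also larger than the gains. The median log2 fold change was -2.36 among the genes called lower and 1.84 among those called higher. A difference of 8-fold or more was seen in 208 of the lower and 25 of the higher genes, and one of 32-fold or more in 51 lower genes and 1 higher gene. In 56 of the lower genes, each dehydrated library held 3 counts or fewer, and in 5 of them every dehydrated library was at 0. In 6 of the higher genes, each control library held 3 counts or fewer. The libraries of both groups did not overlap in 734 of the 738 called genes, whereas they did not overlap in 17.4% of all tested genes. Calls and overlap were read from the same 6 libraries, so the lack of overlap is not separate support for a call.

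**Figure D1:**
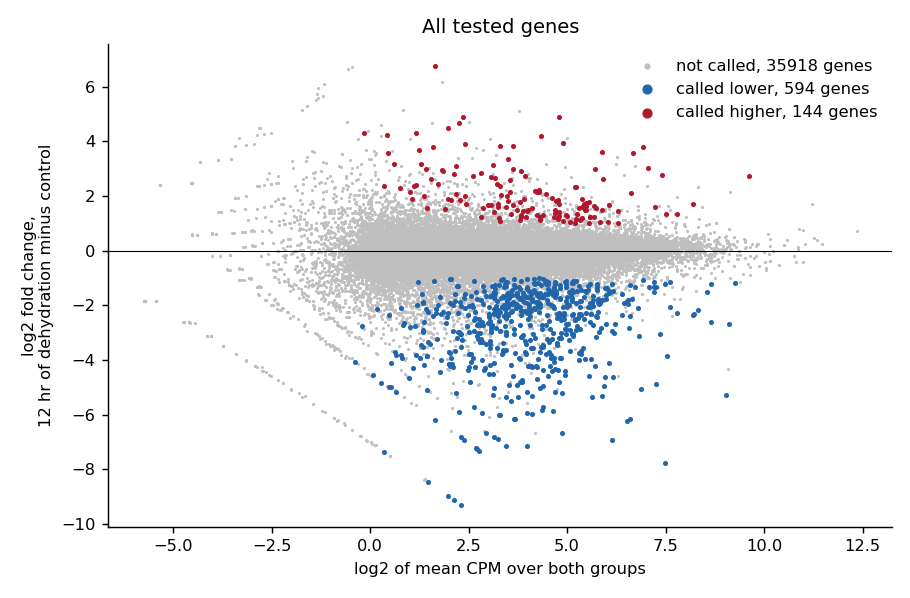
Each point is a tested gene, with the log2 of its mean CPM over the control and 12 hr dehydrated libraries on the x axis and its log2 fold change (12 hr of dehydration minus control) on the y axis. Blue points are the 594 genes called lower and red points the 144 called higher, and the blue points reach farther from the zero line. The 35 tested genes with no count in these 6 libraries are not drawn.

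Levels are given as CPM, which are counts scaled by the library total and edgeR's TMM factor and not by gene length, so they compare libraries and not genes. The median level of the 594 lower genes was 25.8 CPM in the controls and 4.402 CPM after 12 hr of dehydration. The 1 and 6 hr libraries were part of the fit that chose these genes but not of this contrast, and their medians lay in between, at 13.05 CPM after 1 hr and 6.44 CPM after 6 hr. In salt, the same genes had medians of 13.1 CPM at 1 hr, 13.2 CPM at 6 hr and 10.3 CPM at 12 hr. The 144 higher genes had a median of 6.86 CPM in the controls and 23.7 CPM after 12 hr of dehydration, with 8.34 CPM at 1 hr and 19.7 CPM at 6 hr. Their medians in salt were 9.89, 23.1 and 23.1 CPM at 1, 6 and 12 hr. For the higher genes the medians at 12 hr were close in both stresses, and for the lower genes the median in salt was above that in dehydration. Because the genes were chosen by their levels in the control and 12 hr dehydrated libraries, medians of other groups in between are expected from that choice. These medians are therefore no test of a difference between the stresses.

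The count of lower genes leaned on each dehydrated library. It was 231, 247 and 320 without dehydration replicate 1, 2 and 3, and 339 without control replicate 2. The share of called genes that were lower also moved, from 80.5% to 70.9%, 71.4% and 71.6% without dehydration replicate 1, 2 and 3. Without 1 control library it was 80.0% to 84.0%. The count of higher genes was 85 without control replicate 1 or control replicate 2, and 95 without dehydration replicate 1. Without both control replicate 1 and dehydration replicate 3, a choice made after the values were seen, 221 lower and 67 higher genes remained called. All 3 dehydrated libraries and control replicates 1 and 2 were sequenced in lane 4, and within that lane, leaving out control replicate 3, 604 genes were lower and 115 higher.

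Genes on the study's list of stress-responsive transcription factors made up 104 of the called genes. That list held 1054 genes in transcription factor classes, of which 978 were tested. Of these, 86 were lower and 18 higher, 10.6% against the 2.01% of all tested genes. Transcription factor genes off the list carried no class here and were not counted. The list was drawn up by the study from genes that responded to either stress in these same libraries, so the higher share is not independent evidence. The median log2 fold change over the 978 genes was -0.26.

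The classes differed in how many of their listed members were called, as the plot of called genes by class shows. All these calls came from members that the study had listed for dehydration, so the shares are not independent of that list. That list held 25 of the 34 tested CO-like genes, 16 of 22 Dof, 34 of 89 WRKY and 28 of 57 NAC. CO-like genes, for zinc finger proteins related to CONSTANS, which in Arabidopsis links day length to flowering, had 12 members lower and 4 higher among 34 tested, with a class median log2 fold change of -1.25. Dof genes, for plant-specific single zinc finger factors, had 9 lower and 1 higher among 22, with a median of -1.16. MYB/HD-like genes had 17 lower and 2 higher among 130, AP2-EREBP genes 14 lower and 2 higher among 128, and AS2 genes 5 lower and 0 higher among 19. Smaller numbers came from bHLH (6 lower and 2 higher of 73), C2H2 zinc finger (4 and 1 of 57), TPR (4 and 1 of 43) and MYB genes (3 lower of 9). The 18 higher genes belonged to the CO-like, JUMONJI, MYB/HD-like, AP2-EREBP, bHLH, Dof, C2H2, TPR, HSF, TCP and Nin-like classes.

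**Figure D2:**
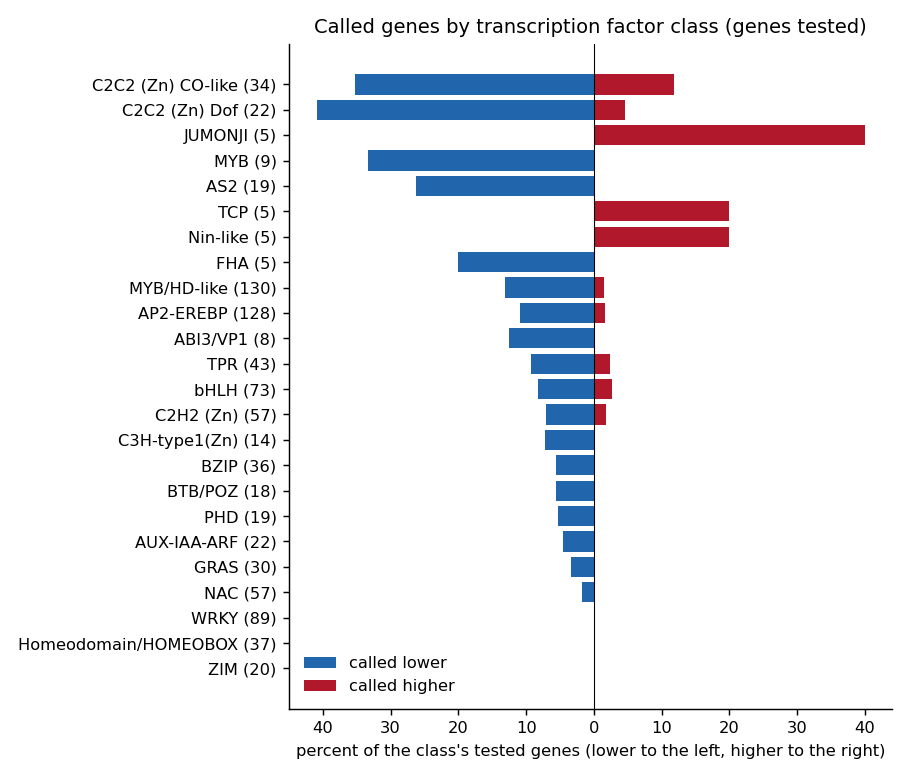
Bars give the percent of tested genes in each class called lower (blue, to the left) or higher (red, to the right) at 12 hr of dehydration. Only genes on the study's list of stress-responsive transcription factors are counted. Classes with at least 5 tested genes and a call are drawn, plus WRKY, ZIM and Homeodomain/HOMEOBOX. The number tested stands beside each class name, and most bars point to the left, with JUMONJI, TCP and Nin-like the classes that have red bars alone.

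The largest loss among the called genes with a transcription factor class was in a gene of the MYB/HD-like class, DNA-binding proteins with MYB-type repeats. The 17 lower members had log2 fold changes of -7.77 to -1.46, with a median of -3.72. Of these, 4 led by p-value, and Glyma16g01980 had the smallest, with a log2 fold change of -5.29 ± 0.25 (SE) and an adjusted p of 1.53e-09. In all 4, each of the 21 fits that left out 1 library kept the call.

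Glyma03g42260 had 518, 293 and 266 CPM in the controls and 1.19, 1.30 and 2.58 CPM after 12 hr of dehydration. Every dehydrated library was far below every control, a 218-fold difference on average (log2 fold change -7.77 ± 0.49 (SE), adjusted p = 6.15e-08 by edgeR's test). The gene stood at 133 to 236 CPM after 1 hr and 6.38 to 12.0 CPM after 6 hr of dehydration, and at 3.21 to 5.42 CPM after 12 hr in salt. Its level at 12 hr of dehydration was lower than at 12 hr of salt (log2 difference -1.48 ± 0.48 (SE), adjusted p = 0.0446).

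Glyma19g45030 had 190, 122 and 104 CPM in the controls and 1.79, 1.04 and 0.258 CPM in the dehydrated roots. The last of these rests on a single count, and the groups did not overlap (log2 fold change -6.91 ± 0.52 (SE), adjusted p = 4.55e-07). After 12 hr in salt it held 4.98, 2.99 and 2.86 CPM, and the difference between the stresses at 12 hr did not pass the test (-1.61 ± 0.55 on the log2 scale, SE, adjusted p = 0.0556).

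Glyma07g05410 fell 29.4-fold, from 448, 193 and 242 CPM to 11.2, 10.4 and 8.26 CPM (log2 fold change -4.88 ± 0.36 (SE), adjusted p = 3.52e-07). Here salt at 12 hr gave 8.88, 7.70 and 12.3 CPM, levels that overlapped with those of dehydration. The log2 difference between the stresses was 0.05 ± 0.33 (SE, adjusted p = 0.932).

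CO-like genes moved in both directions. The 12 lower members had log2 fold changes of -6.01 to -1.89 and the 4 higher members 1.18 to 2.01. Without control replicate 1 or without dehydration replicate 3, 10 rather than 16 members were called.

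Glyma11g07930 had 136, 85.8 and 77.3 CPM in the controls and 4.92, 5.72 and 5.42 CPM after 12 hr of dehydration, an 18.7-fold fall (log2 fold change -4.22 ± 0.28 (SE), adjusted p = 7.75e-08). The 3 dehydrated libraries lay within 1 CPM of each other and far under all controls. Glyma01g37370 went from 90.6, 55.8 and 40.8 CPM to 6.85, 4.42 and 2.84 CPM, a 12.8-fold fall (adjusted p = 2.92e-05). Glyma13g37970 went from 61.0, 60.1 and 42.0 CPM to 8.79, 10.4 and 6.19 CPM, a 6.40-fold fall (adjusted p = 2.18e-05). In none of the 3 did a dehydrated library reach the lowest control.

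**Figure D3:**
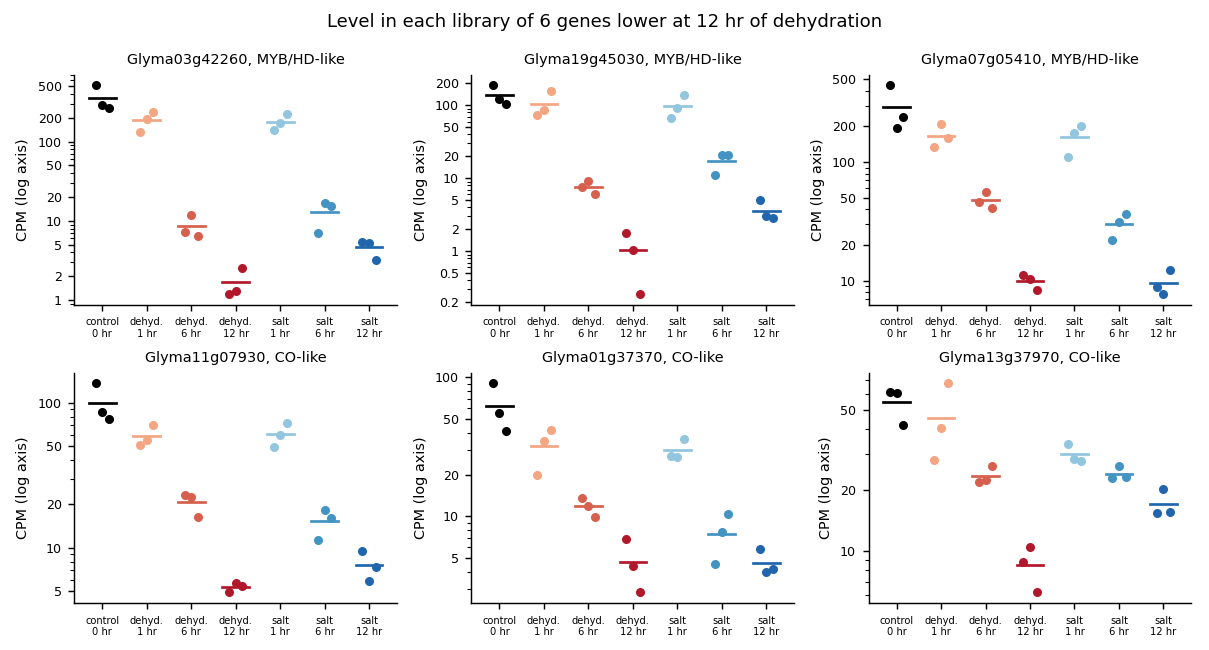
Points give the CPM of each library (log axis) and lines the mean of the 3 libraries per group, for 3 MYB/HD-like and 3 CO-like genes. In every panel the 12 hr dehydration libraries (dark red) lie below all controls (black), and the 6 hr libraries lie between them.

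Among the rising CO-like genes, Glyma02g38870 had 22.1, 21.5 and 18.4 CPM in the controls and 61.1, 53.6 and 92.1 CPM after 12 hr of dehydration, a 3.33-fold rise (log2 fold change 1.74 ± 0.24 (SE), adjusted p = 0.000541). Its 1 hr libraries held 8.16 to 16.02 CPM and its 6 hr libraries 24.2 to 26.7 CPM. Glyma16g05540 had 2.20, 5.69 and 5.26 CPM in the controls and 18.3, 17.4 and 17.6 CPM in the dehydrated roots, a 4.01-fold rise (adjusted p = 0.00286). Every dehydrated library was above every control in both genes. Glyma14g40650 was called too (13.4 CPM on average in the controls, and 25.0, 23.7 and 64.8 CPM after dehydration, adjusted p = 0.0425). The third dehydrated library was by far its highest, and without that library the adjusted p was 0.23.

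Listed Dof genes fell in 9 of 22 cases, with log2 fold changes of -3.93 to -1.60. Without dehydration replicate 1, 6 rather than 10 members were called. Glyma04g33410 had 51.4, 44.6 and 19.6 CPM in the controls and 5.36, 3.64 and 8.52 CPM after 12 hr of dehydration, a 6.61-fold fall (log2 fold change -2.72 ± 0.33 (SE), adjusted p = 0.000134). Glyma05g00970 went from 25.4, 26.2 and 15.6 CPM to 4.62, 2.08 and 2.06 CPM, a 7.28-fold fall (adjusted p = 0.000906). In both genes the control levels varied more than the dehydrated ones in CPM and the groups stayed apart. Glyma07g35690 was counted 62, 81 and 51 times in the controls and 2, 1 and 4 times in the dehydrated roots (adjusted p = 0.000924). The single Dof gene that rose, Glyma05g29090, went from 3.02, 4.10 and 2.24 CPM to 10.7, 19.5 and 18.8 CPM, a 5.18-fold rise (adjusted p = 0.00569).

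Of the 5 tested JUMONJI genes on the study's list, 2 were called and both rose, with a class median log2 fold change of 0.008. In plants the class includes histone demethylases. Glyma12g05890 had 2.20, 4.67 and 3.02 CPM in the controls and 22.2, 27.6 and 26.1 CPM after dehydration, a 7.57-fold rise (log2 fold change 2.92 ± 0.36 (SE), adjusted p = 0.000144). Glyma11g13910 had 1.24, 3.98 and 3.02 CPM and then 23.2, 19.0 and 24.0 CPM, a 7.90-fold rise (adjusted p = 0.000157). The dehydrated libraries lay close together and well above the controls, and both genes had already reached 12.2 to 22.0 CPM at 6 hr. At 12 hr of salt their levels were 25.5 to 33.4 CPM, with no call between the stresses (adjusted p = 0.61 and 0.638).

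Both MYB/HD-like genes that rose did so from low levels. Glyma11g14490 had 4.12, 4.33 and 3.47 CPM in the controls and 19.97, 20.5 and 39.5 CPM after dehydration, a 6.67-fold rise (log2 fold change 2.74 ± 0.36 (SE), adjusted p = 0.000301). Glyma12g06410 had 0.412, 1.48 and 0.560 CPM, of which the first rests on 3 counts, and then 5.36, 5.72 and 8.001 CPM (adjusted p = 0.00178). The dehydrated libraries of both genes were all above the controls.

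**Figure D4:**
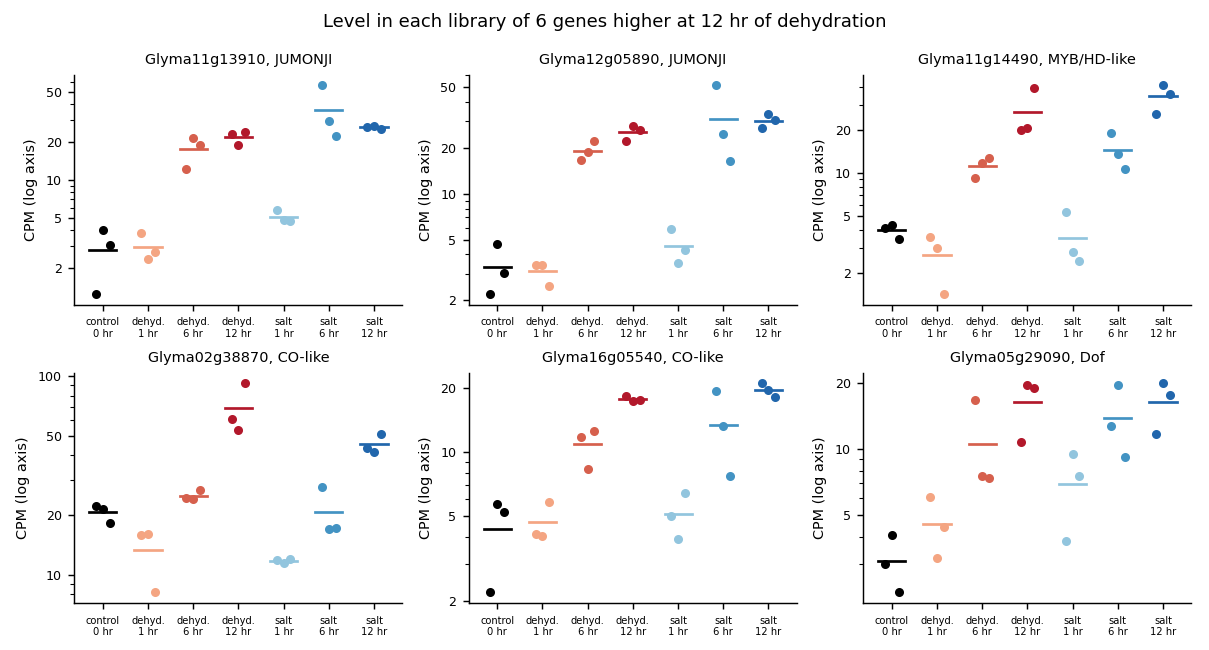
Points give the CPM of each library (log axis) and lines the mean of the 3 libraries per group, for 2 JUMONJI genes, 1 MYB/HD-like, 2 CO-like and 1 Dof gene. All 12 hr dehydration libraries (dark red) lie above all controls (black), and the 1 hr libraries lie near the controls or below them.

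AS2 genes are a plant-specific class whose Arabidopsis members include regulators of organ boundaries and of lateral root formation. Of the 19 tested members on the study's list, 5 were lower and none higher. Glyma07g10180 had 36.2, 62.7 and 34.5 CPM in the controls and 1.64, 1.82 and 3.87 CPM after 12 hr of dehydration, an 18.7-fold fall (log2 fold change -4.23 ± 0.56 (SE), adjusted p = 0.000333). Glyma08g48040 went from 53.9, 66.6 and 47.1 CPM to 5.66, 4.42 and 10.3 CPM, an 8.27-fold fall (adjusted p = 0.00336). Glyma18g53440 went from 76.3, 99.4 and 44.6 CPM to 12.7, 9.62 and 16.5 CPM (adjusted p = 0.0115). In all 3 genes the dehydrated libraries lay below every control, and the 1 hr libraries held 4.53 to 23.4 CPM. The number of AS2 calls was 2 without control replicate 2 or dehydration replicate 2, and 3 without dehydration replicate 1 or 3.

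Against salt at 12 hr, 9 of the 19 tested AS2 genes were called lower and 5 higher in dehydrated roots, where 7.73% and 3.85% of all tested genes were. The study listed these genes for their response to either stress in the same libraries, so the higher shares are not independent evidence. After 12 hr in salt, Glyma07g10180 held 28.4, 56.8 and 23.7 CPM, close to its control levels, and its dehydrated libraries were lower (log2 difference -3.94 ± 0.56 (SE), adjusted p = 0.000531). All 5 AS2 genes called lower against the control were also called lower against 12 hr of salt, a comparison that shares the dehydrated libraries.

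AP2-EREBP genes, the class of the ethylene response and DREB factors, had 14 lower and 2 higher members. Glyma07g37410 had 11.3, 9.79 and 9.29 CPM in the controls and 1.79, 1.04 and 0.774 CPM after dehydration, a 7.89-fold fall (log2 fold change -2.98 ± 0.42 (SE), adjusted p = 0.000624). Glyma18g02170 went from 72.7, 104 and 51.4 CPM to 21.01, 18.7 and 19.9 CPM, a 3.81-fold fall (adjusted p = 0.00312). The third, Glyma02g01960, had 26.5, 104 and 96.6 CPM in the controls, a wide spread, and 4.32, 8.32 and 5.68 CPM in the dehydrated roots (adjusted p = 0.00808). The groups did not overlap in any of the 3. The rising members were Glyma17g18640, from 11.1, 7.29 and 7.05 CPM to 15.6, 25.5 and 28.1 CPM (adjusted p = 0.00522), and Glyma05g18170, from 14.02, 11.6 and 11.6 CPM to 20.4, 22.4 and 39.5 CPM (adjusted p = 0.0243). Without dehydration replicate 3, Glyma05g18170 had a log2 fold change of 0.777 and an adjusted p of 0.144 by edgeR's test, and lost its call. The class count depended on single libraries and on the lane term: 5 rather than 16 members were called without control replicate 2 or without dehydration replicate 1, 6 without dehydration replicate 2, and 7 with lane in the model.

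Other classes gave a few calls each. Among bHLH genes, Glyma20g39220 fell 3.53-fold, from 103, 185 and 149 CPM to 44.6, 39.5 and 39.5 CPM (adjusted p = 0.00365), and Glyma09g38250 rose 3.25-fold, from 2.75, 2.16 and 2.69 CPM to 8.20, 10.1 and 6.45 CPM (adjusted p = 0.00686). Among C2H2 zinc finger genes, Glyma14g09760 fell 4.78-fold (adjusted p = 0.0038) and Glyma08g21080 rose 2.80-fold (adjusted p = 0.00575). Among MYB genes, Glyma11g04440 fell 3.40-fold, from 48.0, 35.97 and 47.0 CPM to 10.7, 12.7 and 15.2 CPM (adjusted p = 0.00262). Among TPR genes, whose products carry a protein interaction repeat, Glyma07g36870 fell 13.1-fold (adjusted p = 0.00223) and Glyma08g45240 rose 2.36-fold (adjusted p = 0.00387). The libraries of both groups did not overlap in any of these genes. The bHLH count was 3 rather than 8 without control replicate 1 or 2 or any 1 of the dehydrated libraries, and 5 with lane in the model. The C2H2 count was 3 rather than 5 without control replicate 2 or dehydration replicate 1 or 2, and 8 without control replicate 1 or dehydration 1 hr replicate 3.

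NAC is a class known for drought and senescence regulators. The single listed NAC gene called was Glyma06g14290. It had 39.9, 70.9 and 117 CPM in the controls and 31.0, 29.6 and 37.2 CPM after dehydration, a 2.33-fold fall (adjusted p = 0.0345). The remaining 56 of the 57 tested NAC genes on the study's list were not called, and NAC genes off that list were not counted. This single call was lost without control replicate 2 or 3 or any 1 of the dehydrated libraries, with lane in the model, with only the 6 libraries fitted, and by limma.

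Among all tested genes 2.01% were called and 12.5% had an unadjusted p under 0.05. The listed members of 3 further classes are read against these shares. For WRKY genes, a class with many defence regulators, edgeR called 0 of 89, while 18 had an unadjusted p under 0.05, DESeq2 called 7 and limma 2. Leaving out 1 library gave 0 to 7 calls, the most without control replicate 1. The WRKY gene with the smallest p, Glyma15g00570, had 17.7, 38.7 and 42.7 CPM in the controls and 16.8, 8.58 and 9.03 CPM after dehydration (adjusted p = 0.0534). For ZIM genes, which include repressors of jasmonate signalling, edgeR, DESeq2 and limma each called 0 of 20, and 2 had an unadjusted p under 0.05. Their leading gene, Glyma01g41290, varied widely, with 12.5, 31.2 and 2.06 CPM in the dehydrated libraries against 0.687, 1.02 and 4.59 CPM in the controls (adjusted p = 0.262). For the Homeodomain class, edgeR called 0 of 37, 6 had an unadjusted p under 0.05, DESeq2 called 2 and limma 0. At the share of all tested genes, classes of 20 or 37 members would hold few calls or none. Among the listed genes of all classes, however, 10.6% were called. On the study's dehydration list edgeR called 104 of 491 tested genes, but 0 of 16 ZIM, 0 of 16 Homeodomain and 0 of 34 WRKY genes. That list was chosen on these same libraries and covers other times too, and whether the classes differ was not tested.

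HD-Zip genes join a homeodomain to a leucine zipper in 1 protein, and in Arabidopsis several HD-Zip I genes respond to water deficit and abscisic acid. The study listed 101 of them in soybean, chosen by homology and not by response. Of these, 7 were not analysed here, 26 were under the filter on low counts, and 68 were tested. By edgeR's test 0 of the 68 were called, with a smallest adjusted p of 0.117. An unadjusted p under 0.05 was reached by 10 (14.7% of the 68, against 12.5% of all tested genes), 7 of them higher. The libraries of both groups did not overlap in 11 of them (16.2%, against 17.4% of all tested genes), and the median log2 fold change was 0.03. DESeq2's Wald test called 1, and limma on the normalized values called 0.

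That single call was Glyma01g04890, an HD-Zip I gene with a log2 fold change of 1.54 ± 0.48 (SE). It also passed when only the 6 libraries were fitted or when salt 6 hr replicate 1 was left out. The study, with its own DESeq test, reported this gene as upregulated at 6 and 12 hr of dehydration. Glyma01g04890 had 32.4, 19.9 and 21.3 CPM in the controls and 62.9, 65.3 and 86.5 CPM after 12 hr of dehydration. Its homoeologous partner Glyma02g02630 had 51.7, 28.8 and 28.8 CPM in the controls and 51.3, 65.8 and 85.4 CPM after dehydration, with overlapping libraries (log2 fold change 0.89 ± 0.37 (SE), adjusted p = 0.299). A second HD-Zip I pair had higher mean levels in the dehydrated roots without passing the test. Glyma08g14130 had 557, 594 and 341 CPM in the controls and 614, 714 and 800 CPM after dehydration (adjusted p = 0.309), and Glyma05g30940 had 194, 193 and 127 CPM and then 178, 275 and 543 CPM (adjusted p = 0.223). The first of these did not overlap between groups and the second did. Glyma05g01390, also HD-Zip I, had 195, 221 and 107 CPM in the controls and 63.8, 77.8 and 123 CPM after dehydration, with overlapping libraries (adjusted p = 0.304). In Glyma06g20230, of the same subfamily, the dehydrated libraries lay below all controls, at 29.5, 41.3 and 63.8 CPM against 99.8, 87.4 and 75.2 CPM (log2 fold change -0.97 ± 0.31 (SE), adjusted p = 0.139). Reads from near-identical stretches of such pairs are not in the counts, since the authors kept uniquely mapped reads.

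By subfamily, 6 of the 27 tested HD-Zip I genes, 3 of the 23 HD-Zip II genes, 0 of the 11 HD-Zip III genes and 1 of the 7 HD-Zip IV genes had an unadjusted p under 0.05. The HD-Zip III genes, which in Arabidopsis act in vascular and meristem development, lay within log2 fold changes of -0.44 and 0.27. HD-Zip IV genes, known for roles in the epidermis, had 18 members under the filter and a median of -0.65 over those tested. The lowest, Glyma18g45970, was counted 7, 10 and 11 times in the controls and 4, 1 and 1 times in the dehydrated roots (adjusted p = 0.362). In HD-Zip II, Glyma07g14270 had 7.97, 12.3 and 8.84 CPM and then 13.9, 15.9 and 13.7 CPM (adjusted p = 0.325), and Glyma09g16790 had 19.2, 12.1 and 8.73 CPM and then 14.6, 19.8 and 42.3 CPM (adjusted p = 0.342).

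**Figure D5:**
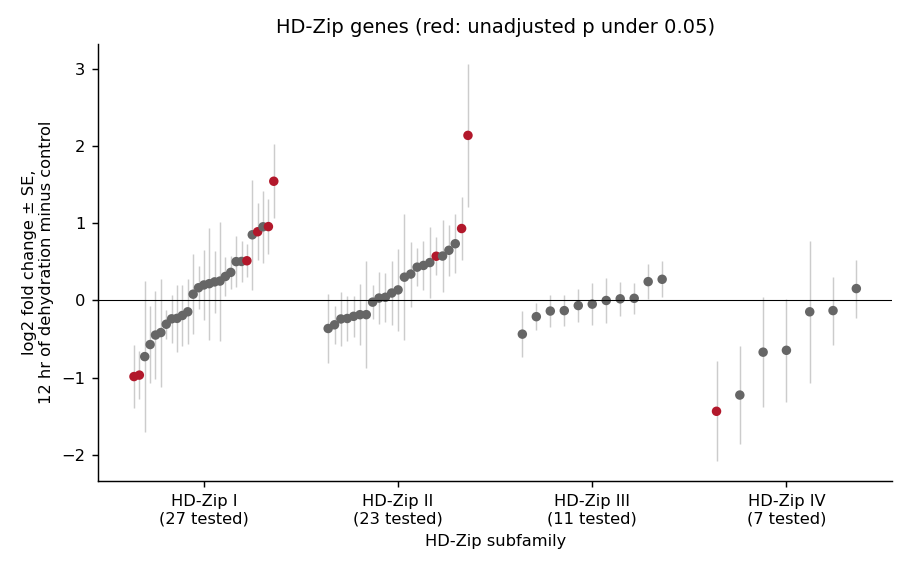
Points give the log2 fold change (12 hr of dehydration minus control) of each of the 68 tested HD-Zip genes by subfamily, with bars of 1 standard error on each side, ordered by value within a subfamily. The 10 red points have an unadjusted p under 0.05, and none passed the adjusted test.

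To see what set 12 hr apart within the dehydration series, its libraries were also compared with those of 6 hr. Far fewer genes differed: 16 were called (0.0436% of those tested), 5 higher (0.0136%) and 11 lower (0.03%) at 12 hr, while 1813 had an unadjusted p under 0.05. Of the 16, 5 carried a transcription factor class. Among these, Glyma14g36930 was named for this difference after its values were seen, and the others were already named for their difference from the control. The MYB/HD-like genes Glyma16g01980 and Glyma07g05410 were lower at 12 hr than at 6 hr, both by -2.25 on the log2 scale (adjusted p = 8.49e-05 and 0.00874). The CO-like gene Glyma11g07930 was lower (log2 difference -1.95, adjusted p = 0.00483), with 23.0, 22.5 and 16.4 CPM at 6 hr.

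The CO-like genes Glyma02g38870 (log2 difference 1.46, adjusted p = 0.0258) and Glyma14g36930 (1.57, adjusted p = 0.0215) were higher at 12 hr. Glyma14g36930 had 35.7, 28.8 and 26.5 CPM in the controls, 10.6 to 14.5 CPM after 1 hr, 18.6 to 20.6 CPM after 6 hr, and 49.8, 41.9 and 86.2 CPM after 12 hr. Its 12 hr libraries were all above every control. The log2 fold change between the groups was 0.96 ± 0.25 (SE), short of the 2-fold limit, and 0.59 without dehydration replicate 3 (adjusted p = 0.24). Among the genes with no annotation, Glyma11g21580 fell between 6 and 12 hr, from 41.1, 40.1 and 30.2 CPM to 3.13, 1.82 and 1.81 CPM (log2 difference -3.98 ± 0.30 (SE), adjusted p = 3.91e-06). At 12 hr of salt it held 4.98, 5.24 and 3.57 CPM. Glyma11g25860 had 217, 179 and 180 CPM in the controls, 9.92 to 11.3 CPM at 6 hr and 1.94, 2.34 and 3.87 CPM at 12 hr, a 72.3-fold fall from the control.

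The 6 hr libraries were in lane 3 apart from replicate 3, which shared lane 4 with the dehydrated libraries of 12 hr, and with lane as a term 6 genes were called. The count was also 5 when only those 6 libraries were fitted, 6 without dehydration 12 hr replicate 1, 10 without replicate 3, and 9 without dehydration 6 hr replicate 3.

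Salt at 12 hr is the comparison in which time since the start of treatment is the same. Against it, 4249 genes were called (11.6% of those tested), with 1413 higher (3.85%) and 2836 lower (7.73%) in dehydrated roots. Of the 594 genes lower than in the controls, 206 were lower and 3 higher than in salt at 12 hr, and of the 144 genes higher than in the controls, 8 were lower and 13 higher than in salt. These counts share the dehydrated libraries with the comparison that chose the genes. The 12 hr salt libraries came from lanes 2, 3 and 4, 1 each, so lane 4 held too few for a value of its own, and with lane as a term 1393 genes were called. Without dehydration replicate 1, dehydration replicate 2 or salt 12 hr replicate 2, the counts were 2316, 2441 and 2446.

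The transcription factor classes split differently here than against the control. WRKY genes were lower than in salt in 67 of 89 cases, AP2-EREBP genes lower in 63 of 128, C2H2 genes in 29 of 57, NAC genes in 22 of 57 and ZIM genes in 12 of 20, against 7.73% of all tested genes. CO-like genes were lower in 4 of 34 and Dof genes in 3 of 22. The study chose these genes for their response to salt or dehydration in the same libraries, so these shares too are not independent evidence. The WRKY gene Glyma15g00570 held 59.8, 68.6 and 54.4 CPM in salt at 12 hr, above its control levels, against 16.8, 8.58 and 9.03 CPM in dehydration (log2 difference -2.38 ± 0.40 (SE), adjusted p = 0.00138). The Homeodomain gene Glyma13g17930 held 145, 98.7 and 44.4 CPM in salt and 2.38, 2.60 and 3.097 CPM in dehydration (log2 difference -5.16 ± 0.70 (SE), adjusted p = 0.000419).

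HD-Zip genes, which were not chosen on these libraries, differed between the stresses at 12 hr in 8 of 68 cases, 5 higher and 3 lower in dehydrated roots, a share close to the 11.6% of all tested genes. The largest was Glyma15g18320, an HD-Zip II gene with 14.3, 7.59 and 5.24 CPM in salt at 12 hr and 0.894, 0.260 and 1.03 CPM in dehydration (log2 difference -3.55 ± 0.67 (SE), adjusted p = 0.00266). It was barely detected in the controls, at 0, 1 and 3 counts, and the 12 hr dehydrated libraries held 6, 1 and 4 counts. The HD-Zip I partners Glyma01g38390 and Glyma11g06940 were both lower in dehydration than in salt (log2 differences -1.46 and -1.21, adjusted p = 0.0309 and 0.0493). In the dehydrated libraries they held 24.0, 23.9 and 7.49 CPM and 23.1, 23.1 and 10.1 CPM, levels that overlapped the controls.

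The 5 HD-Zip genes higher in dehydration than in salt were not called against the control. Glyma03g30200, an HD-Zip II gene, had 4.67, 8.42 and 4.36 CPM in the controls, 9.54, 9.88 and 8.001 CPM in dehydration and 2.17, 2.57 and 2.02 CPM in salt at 12 hr (log2 difference 2.01 ± 0.36 (SE), adjusted p = 0.0019). Glyma11g03850, also HD-Zip II, had 57.7 to 73.7 CPM in the controls, 44.2 to 64.0 CPM in dehydration and 19.5 to 23.4 CPM in salt (adjusted p = 0.00326). Glyma07g02220 of HD-Zip IV, Glyma01g05230 of HD-Zip I and Glyma09g16790 of HD-Zip II made up the rest, with log2 differences of 1.69, 1.75 and 1.40. In all 5, every 12 hr salt library was below every 12 hr dehydrated library.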

How the data were processed

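RNA of 21 root libraries was sequenced, and 2 tables over 62537 gene models were deposited. The authors aligned reads with GSNAP, kept those mapping to 1 location and deposited raw counts per gene model (Glyma1.0). The second deposited table holds the normalized signal that the authors obtained with DESeq 1.7.10, each count divided by a size factor of its library. The counting program, its use of strand and any treatment of overlapping genes are not given in the sources used here, so genes that overlap others are uncertain.

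From the counts, all 7 groups of 3 libraries were fitted together in edgeR 4.0.16 (R 4.3.3) with filterByExpr, TMM and robust glmQLFit, and contrasts were tested with glmQLFTest. Benjamini-Hochberg adjustment ran over all 36691 genes. Called genes had an adjusted p under 0.05 and at least a 2-fold difference. Standard errors are the log2 fold change divided by the root of the F statistic. The biological coefficient of variation was 0.306. The code was tested on simulated counts. Alternatives used DESeq2 1.42.0 and limma 3.58.1, other filters and scalings, lane or replicate number as a term, thinned counts, and each library left out in turn.

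The genes, gene lists and tests were chosen with earlier results of these data known. Named genes were those with the smallest p among called genes whose groups did not overlap (at most 2 per direction without annotation), up to 3 called genes per direction in each transcription factor class with at least 5 tested members or else the gene with the smallest p, and the HD-Zip genes whose unadjusted p was under 0.05. HD-Zip genes called against salt at 12 hr and transcription factor genes called against 6 hr were added after their values were seen. Some of these were already named by the rules above. Of this set the text gives the ones that bear on its comparisons. Planned lists by gene description, root markers and promoter motifs were not analysed here. The transcription factor classes replaced those lists after the files were read.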

Additional observations from a re-analysis of the deposited data

Results flagged for a closer look

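Each gene below had a called difference between 12 hr of dehydration and another stressed group, by edgeR's quasi-likelihood test of that difference with adjustment over all tested genes. Most were named for their difference from the control, whereas 6 HD-Zip genes and Glyma14g36930 were named for the very difference given here, after its values were seen. Values are log2 differences, with the standard error for those between 12 and 6 hr, and no cause was tested.

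Between 12 and 6 hr of dehydration, 2 CO-like genes were higher at 12 hr, Glyma02g38870 (1.46 ± 0.241, adjusted p = 0.0258) and Glyma14g36930 (1.57 ± 0.253, adjusted p = 0.0215). The MYB/HD-like genes Glyma07g05410 (-2.25 ± 0.329, adjusted p = 0.00874) and Glyma16g01980 (-2.25 ± 0.22, adjusted p = 8.49e-05) were lower, as was the CO-like gene Glyma11g07930 (-1.95 ± 0.268, adjusted p = 0.00483). Of the genes without annotation, Glyma11g21580 (-3.98 ± 0.299, adjusted p = 3.91e-06) and Glyma11g25860 (-2.02 ± 0.301, adjusted p = 0.00878) were lower.

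Between 12 hr of dehydration and 12 hr of salt, the AP2-EREBP genes Glyma02g01960 (-3.88), Glyma07g37410 (-3.49) and Glyma18g02170 (-1.75) were lower in dehydrated roots, with adjusted p-values of 0.00213, 0.000275 and 0.00247. The AS2 genes Glyma07g10180 (-3.94), Glyma08g48040 (-3.40) and Glyma18g53440 (-2.64) were lower, with adjusted p-values of 0.000531, 0.000854 and 0.00289. The C2H2 genes Glyma04g04760 (-3.30) and Glyma14g09760 (-2.18) and the MYB genes Glyma16g06690 (-4.87) and Glyma19g24640 (-3.81) were lower, with adjusted p-values of 0.000854, 0.00204, 0.00596 and 0.00264. Single genes of further classes were lower too: Glyma01g41290 of ZIM (-3.10, adjusted p = 0.0461), Glyma03g29820 of BZIP (-2.18, adjusted p = 0.00156), Glyma03g42260 of MYB/HD-like (-1.48, adjusted p = 0.0446), Glyma05g24430 of CAMTA (-1.59, adjusted p = 0.0126), Glyma06g14290 of NAC (-1.67, adjusted p = 0.00194) and Glyma07g35690 of Dof (-2.68, adjusted p = 0.00756). The same held for Glyma07g39650 of GRAS (-2.41, adjusted p = 0.00842), Glyma13g17930 of Homeodomain (-5.16, adjusted p = 0.000419), Glyma13g37970 of CO-like (-1.01, adjusted p = 0.0192), Glyma15g00570 of WRKY (-2.38, adjusted p = 0.00138) and Glyma20g39220 of bHLH (-1.10, adjusted p = 0.0235). Without annotation, Glyma09g07240 (-1.16, adjusted p = 0.00938) and Glyma11g25860 (-1.23, adjusted p = 0.0141) were lower. Higher in dehydration than in salt were Glyma08g02550 of HMG (1.39, adjusted p = 0.0339) and Glyma16g30180 of Nin-like (1.54, adjusted p = 0.0167).

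Among HD-Zip genes, Glyma01g05230 (1.75), Glyma03g30200 (2.01), Glyma07g02220 (1.69), Glyma09g16790 (1.40) and Glyma11g03850 (1.30) were higher in dehydration than in salt at 12 hr, with adjusted p-values of 0.0388, 0.0019, 0.0114, 0.0322 and 0.00326. Glyma01g38390 (-1.46), Glyma11g06940 (-1.21) and Glyma15g18320 (-3.55) were lower, with adjusted p-values of 0.0309, 0.0493 and 0.00266.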

How the results depend on the processing

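DESeq2's Wald test called 1016 lower and 288 higher genes against the control, 53 between 12 and 6 hr of dehydration and 1 HD-Zip gene, and fitting only the 6 libraries compared gave 5 between 12 and 6 hr and 1 HD-Zip gene. With lane as a term, 6 genes differed between 12 and 6 hr and 1393 between dehydration and salt at 12 hr. In limma with a pseudocount of 0.1, 25 differed between 12 and 6 hr. Leaving out 1 library at a time gave 231 to 677 lower and 85 to 167 higher genes against the control, 6 to 19 between 12 and 6 hr, 2316 to 4564 between the stresses and 0 to 1 HD-Zip genes. Leaving out control replicate 1 and dehydration replicate 3 together, chosen after seeing the data, gave 221 lower and 67 higher genes. Other settings moved these counts by 1.5 times or less.

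Deviations of same-numbered control and 12 hr dehydration libraries correlated at -0.114, 0.016 and -0.377, so the numbers do not pair the libraries. With the replicate number as a block, 508 genes were lower, 116 higher, 13 differed between 12 and 6 hr and 3724 between the stresses, and 0 HD-Zip genes were called.

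Of the 86 named genes, 58 were called, and 34 of these kept the call in all 11 alternatives and all 21 fits that left out 1 library. Over all genes and settings, 175 values lost the threshold and 29 gained it. Direction turned only in genes with small differences. Glyma01g05230 turned to -0.0463 with the replicate block. Over the alternatives and the fits that left out 1 library together, log2 fold changes were -0.18 to 0.37 for Glyma01g05230 and -0.49 to 0.12 for Glyma01g38390. They were -0.045 to 0.38 for Glyma07g02220, -0.62 to 0.081 for Glyma08g02550 and -0.39 to 0.089 for Glyma11g06940. The causes were not tested. At 12 hr, 1 count stood for 0.149 to 0.260 CPM, which limits what can be said of genes at 0.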
